A study of Mus musculus with 32 samples.

Results

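The NF-kB cytokine and feedback circuit was followed through 10 genes in the blood of irradiated and sham-treated mice: the cytokines Tnf, Il1a, Il1b and Il6, the chemokine Cxcl2, the antagonist Il1rn, the enzymes Ptgs2 and Sod2, and the inhibitors Nfkbia and Tnfaip3. They were taken by gene name from the array's own annotation, which gave 1 probe for each gene: 10 of 30139 genes, and 10 of 39429 probes. NF-kB is a family of transcription factors held in the cytoplasm of resting cells by IkB proteins. Signals from cytokine receptors, microbial sensors or DNA damage activate the IkB kinase, IkB is degraded, and the freed factors switch on cytokines, chemokines and survival genes together with their own inhibitors. In blood the circuit is best known from monocytes and neutrophils, which make most of the cytokines listed here.

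Whole blood was drawn by cardiac puncture 24 h after X-ray exposure or sham treatment, preserved in PAXgene reagent, and its RNA was depleted of globin transcripts and hybridised to Agilent 1-colour arrays, 1 array per mouse, 32 mice in all. All mice were male C57BL/6, and an age was not used here. Wild type mice (WT) formed a sham group of 6 and a group of 5 given 8 Gy. ATM-/- mice (labelled ATM-KO), which lack the kinase that signals DNA double-strand breaks, formed a sham group of 5 and a group of 6 given 4 Gy. Scid mice, whose defect in end joining leaves them without most mature B and T cells, formed a sham group of 5 and a group of 5 given 3 Gy. Per the design text each genotype received a dose of the same expected lethality, so dose and genotype changed together and differences between the responses cannot be told apart from differences in dose. The comparison asks how the blood transcriptome responds to X-rays in mice with defects in DNA repair.

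Between 20.0% and 58.6% of probes were well above background per array, and the 75th percentile of the processed signal ran from 17.1 to 232, with all 5 WT 8 Gy arrays at 127 or higher. Neither of the 2 Atm probes nor the Prkdc probe passed the detection filter (well above background on 0, 3 and 2 of 32 arrays), so they gave no check of the genotype labels. The mean level of 11 B cell markers was between -2.10 and -0.79 on 4 Scid 0 Gy arrays and 1.37 on the library labelled Scid 0 Gy replicate 4, and between -0.57 and 2.71 on 5 WT 0 Gy arrays and -1.73 on the library labelled WT 0 Gy replicate 3. T cell markers were at 2.48 on that Scid library (0.59 to 1.47 on the other Scid controls) and at 1.0 on that WT library (2.04 to 2.97 on the other WT controls). NK cell markers were at 0.92 (2.42 to 2.76 on the others) and 2.91 (1.06 to 1.73). Both libraries lay on the same slide, and each goes against its label in these markers. Several values of the measured members that rest on them are also given without one or both, the fit without both having been chosen after seeing the data. The mean level of 6 liver markers was 8.85 to 9.54 on 4 arrays: ATM-KO 4 Gy replicate 3, WT 0 Gy replicate 5 and the first and second WT 8 Gy replicates.

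Sequences upstream of the members are shown first, since the presence of an NF-kB site is what joins many of these genes. The NF-kB consensus, GGGRNNYYCC (R is A or G, Y is C or T, N any base), was searched on both strands of the 250 bases before each RefSeq transcript start (build GRCm38.p6). It occurred before 5 of the 10 genes (Il6, Nfkbia, Tnfaip3, Cxcl2 and Sod2) and in 5 of their 13 annotated upstream windows, beside 7.25% of 32851 windows of all genes. A looser pattern with all inner bases free occurred before 8 of the 10 genes and in 10 of the 13 windows, beside 45.8% of all windows. Only consensus matches are described from here on. The 4 windows below belong to the 3 measured genes with a match and to Cxcl2, which had 2 overlapping matches. Capitals mark the consensus matches and each line runs 5′ to 3′ toward the transcript start on the gene's own strand.
Nfkbia, chr12:55492648-55492897, minus strand: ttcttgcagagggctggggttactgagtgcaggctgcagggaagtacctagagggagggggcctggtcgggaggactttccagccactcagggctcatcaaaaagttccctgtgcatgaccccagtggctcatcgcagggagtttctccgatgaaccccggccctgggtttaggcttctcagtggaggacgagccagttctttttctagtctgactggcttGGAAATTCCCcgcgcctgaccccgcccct
Tnfaip3, chr10:19015411-19015660, minus strand: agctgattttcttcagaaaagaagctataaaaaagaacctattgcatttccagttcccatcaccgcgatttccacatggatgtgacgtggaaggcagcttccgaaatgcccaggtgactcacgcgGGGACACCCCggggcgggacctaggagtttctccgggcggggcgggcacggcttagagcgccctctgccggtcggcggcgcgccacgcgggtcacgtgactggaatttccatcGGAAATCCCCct
Sod2, chr17:13007589-13007838, plus strand: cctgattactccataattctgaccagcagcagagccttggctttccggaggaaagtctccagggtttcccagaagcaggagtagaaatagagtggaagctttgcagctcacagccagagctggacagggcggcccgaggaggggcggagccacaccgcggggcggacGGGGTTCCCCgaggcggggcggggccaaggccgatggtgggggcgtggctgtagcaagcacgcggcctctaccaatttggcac
Cxcl2, chr5:90903649-90903898, plus strand: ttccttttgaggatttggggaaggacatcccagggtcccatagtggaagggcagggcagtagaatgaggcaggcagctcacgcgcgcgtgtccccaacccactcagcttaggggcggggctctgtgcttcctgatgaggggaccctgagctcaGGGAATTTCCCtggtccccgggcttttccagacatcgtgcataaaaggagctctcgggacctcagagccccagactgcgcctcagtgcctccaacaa
The Nfkbia match GGAAATTCCC began 29 bases before the start and that of Sod2, GGGGTTCCCC, 83 bases before it. Tnfaip3 had a match 125 bases before its upstream start and another 12 bases before it. The Il6 match, GGGATTTTCC, began 44 bases before the start. Matches thus preceded genes that were measured on these arrays and genes that were not, and Il1b, which was measured on every array, had none in this window. A match of letters is a description and not a site of binding.

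The blood held a measurable signal for 4 of the 10 genes. Il1b, Nfkbia and Sod2 were well above background on all 32 arrays, and Tnfaip3 on 26 of 32. Tnf, Il1a and Ptgs2 were well above background on none, Il6 on 1, Cxcl2 on 2 and Il1rn on 7, so these 6 did not pass the filter, which asked for 4 arrays of at least 1 group. Levels below are the log2 processed signal less the log2 75th percentile of the same array, so that a level of 0 is the array's 75th percentile. Changes are differences of group mean levels on that log2 scale with their standard error (SE), tested two-sided with limma over 15159 genes with Benjamini-Hochberg adjustment and called at an adjusted p under 0.05.

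After irradiation the scaled level of Sod2 fell in WT blood, where its unscaled log2 signal differed by -0.16. Sod2 was the only one of the 4 measured genes called in a single genotype. Without the libraries labelled WT 0 Gy replicate 3 and Scid 0 Gy replicate 4 its WT change was -1.54 (adjusted p = 0.0798) and was not called. In WT 1 of the 4 was called, beside 7.2% of all genes (6.07% lower), 0 of 4 in ATM-KO (0.237% of all genes) and 0 of 4 in Scid (1.08%). In the mean of the 3 responses, weighted equally, Sod2 and Tnfaip3 were called lower, 2 of 4, beside 11.5% of all genes (9.79% lower). Il1b and Nfkbia were not called in any comparison. The median change of all genes was -0.02 in WT, -0.16 in ATM-KO and 0.01 in Scid.

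**Figure D1:**
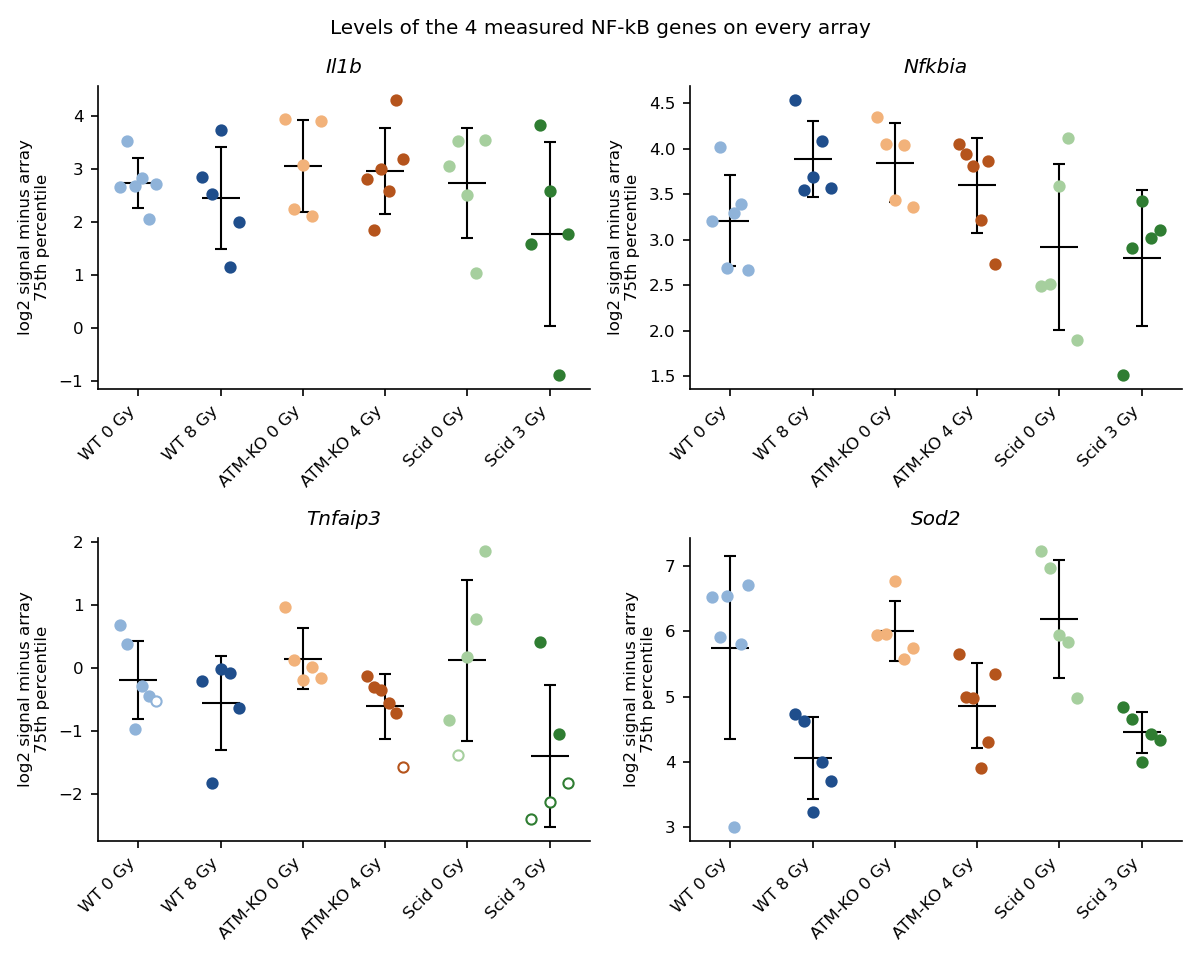
Level of Il1b, Nfkbia, Tnfaip3 and Sod2 on each of the 32 arrays (vertical axis: log2 processed signal minus the array's 75th percentile), by group, with the group mean and SD as black bars; open points were not well above background. In Sod2 the Scid 3 Gy points, 4.00 to 4.84, all lie below the Scid 0 Gy points, 4.98 to 7.23, and 1 WT 0 Gy point lies at 3.00.

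Il1b encodes interleukin 1 beta, a fever-inducing cytokine made as a precursor that the inflammasome cleaves. Its probe, printed as 10 replicate spots, lies at chr2:129190347-129190406 (mm9). Its level in WT at 0 Gy had a lowest value of 2.06, a median of 2.69 and a highest of 3.52 (mean 2.74 ± 0.47, SD, n = 6). At 8 Gy the 5 WT mice had Il1b levels of 2.84, 2.52, 3.73, 1.15 and 2.0 (mean 2.45 ± 0.96, SD). The WT groups overlapped, with the widest spread after irradiation.
The ATM-KO 0 Gy mice had Il1b levels of 3.94, 2.24, 3.08, 2.11 and 3.90. At 4 Gy the ATM-KO levels ran from 1.84 over a median of 2.90 to 4.30. The Scid 0 Gy levels of Il1b were 3.06, 3.52, 2.51, 1.04 and 3.54, and those at 3 Gy were 1.58, 3.82, 2.58, -0.89 and 1.78. Every pair of groups overlapped, and the lowest level of all was that of Scid 3 Gy replicate 4.
The change of Il1b was -0.30 (SE 0.59, adjusted p = 0.805) in WT, -0.10 (SE 0.59, adjusted p = 0.976) in ATM-KO and -0.96 (SE 0.62, adjusted p = 0.682) in Scid. The 95% interval in WT reached from -1.50 to 0.91, so changes of either sign lay inside it. Without the library labelled Scid 0 Gy replicate 4 the Scid change of Il1b was -1.38 (SE 0.62, adjusted p = 0.554). The sign of the WT change of Il1b turned under other settings, to 0.98 when scaled to spike-in probes and 0.60 after normexp correction, and was -0.59 without the 4 liver-bright arrays.

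Nfkbia encodes IkB alpha, the inhibitor that holds NF-kB in the cytoplasm and is itself re-made as an NF-kB target. The genome coordinates of its probe, chr12:56590945-56591440 (mm9), span 496 bases, beside 60 for each other member. This is the span on the genome and not the length of the probe. In WT at 0 Gy the Nfkbia level ran from 2.67 over a median of 3.25 to 4.02 (mean 3.21 ± 0.50, SD, n = 6). The 5 WT mice at 8 Gy had Nfkbia levels of 4.54, 3.55, 3.69, 4.09 and 3.57 (mean 3.89 ± 0.42, SD). All 5 lay above the control median, and WT 0 Gy replicate 2 lay among them.
Nfkbia in ATM-KO at 0 Gy had levels of 4.35, 4.05, 3.44, 4.04 and 3.36, and at 4 Gy a lowest of 2.73, a median of 3.84 and a highest of 4.05. In Scid mice the Nfkbia levels were 2.49, 2.51, 3.59, 4.12 and 1.90 at 0 Gy, and 1.51, 2.91, 3.43, 3.02 and 3.11 at 3 Gy. The groups overlapped in both genotypes.
The change of Nfkbia was 0.68 (SE 0.38, adjusted p = 0.31) in WT, -0.25 (SE 0.38, adjusted p = 0.876) in ATM-KO and -0.12 (SE 0.39, adjusted p = 0.962) in Scid. The ATM-KO response less the WT response was -0.93 (95% interval -2.01 to 0.16, adjusted p = 0.642), and the Scid response less the WT response -0.80 (95% interval -1.91 to 0.31, adjusted p = 0.687). Without the library labelled Scid 0 Gy replicate 4 the latter was -0.50 (adjusted p = 0.966), and without the library labelled WT 0 Gy replicate 3 as well it was -0.40 (adjusted p = 0.999). Without the library labelled Scid 0 Gy replicate 4, which had the highest Nfkbia level of its group, the Scid change was 0.18 (SE 0.39, adjusted p = 0.999). Scaled to spike-in probes the WT change of Nfkbia was 1.96 and passed the threshold (adjusted p = 0.0358), under a scaling that moved the median of all genes by 1.25.

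Tnfaip3 encodes A20, a ubiquitin-editing enzyme that shuts off signalling upstream of the IkB kinase. Its probe lies at chr10:18720776-18720835 (mm9) and gave a processed signal of 5.9 to 201. The WT 0 Gy levels of Tnfaip3 ran from -0.97 over a median of -0.36 to 0.69, and the WT 8 Gy levels were -0.21, -1.83, -0.02, -0.08 and -0.64. In ATM-KO the Tnfaip3 levels were 0.98, 0.13, -0.19, 0.01 and -0.16 at 0 Gy, and ran from -1.58 over a median of -0.46 to -0.13 at 4 Gy. Of the 6 ATM-KO 4 Gy arrays, 5 lay below all 5 controls, and the sixth, at -0.13, lay above the lowest of them. The lowest irradiated array, replicate 6 at -1.58, had a signal of 5.9 that was not well above background.
The Scid levels of Tnfaip3 were -0.83, -1.38, 0.17, 0.78 and 1.86 at 0 Gy, and -2.40, 0.41, -2.13, -1.05 and -1.83 at 3 Gy. Of the Scid 3 Gy arrays, 3 lay below every Scid control, and the same 3 were not well above background, so those levels are read from signals near the limit of detection.
The change of Tnfaip3 was -0.37 (SE 0.49, adjusted p = 0.704) in WT, -0.76 (SE 0.49, adjusted p = 0.589) in ATM-KO and -1.52 (SE 0.51, adjusted p = 0.18) in Scid. The mean over genotypes was -0.88 (SE 0.29, 95% interval -1.47 to -0.30, adjusted p = 0.0425), a level 0.542 times that of the controls. That call was lost under 11 of 14 other settings, with adjusted p-values up to 0.406 and the change at -0.19 after normexp correction. Without both libraries that go against their labels it was -0.88 (adjusted p = 0.0583). It was also lost in 17 of the 32 fits with 1 array left out, with adjusted p-values up to 0.0817. The 17 arrays were WT 0 Gy replicates 1, 2 and 4, WT 8 Gy replicates 2 and 5, ATM-KO 0 Gy replicates 1, 2 and 4, ATM-KO 4 Gy replicates 4, 5 and 6, Scid 0 Gy replicates 3, 4 and 5, and Scid 3 Gy replicates 1, 3 and 5, and the change without each was between -0.90 and -0.74. Without Scid 3 Gy replicate 2, the array at 0.41, the Scid change of Tnfaip3 was -1.97 and passed the threshold (adjusted p = 0.0417), while without the library labelled Scid 0 Gy replicate 4 it was -1.35 (SE 0.55, adjusted p = 0.421).

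Sod2 encodes the manganese superoxide dismutase of mitochondria, which turns superoxide into hydrogen peroxide and is induced by NF-kB in many cells. Its probe lies at chr17:13208074-13208133 (mm9). The 6 WT 0 Gy mice had Sod2 levels of 6.53, 5.92, 6.55, 3.00, 5.81 and 6.71 (mean 5.75 ± 1.40, SD). At 8 Gy the WT levels were 4.73, 4.63, 3.23, 3.99 and 3.70 (mean 4.05 ± 0.63, SD). All 5 irradiated WT mice lay below 5 of the 6 controls, while WT 0 Gy replicate 4 lay below all of them.
The ATM-KO levels of Sod2 were 5.95, 5.96, 6.77, 5.57 and 5.75 at 0 Gy (mean 6.00 ± 0.46, SD), and 5.66, 4.99, 4.97, 3.91, 4.30 and 5.35 at 4 Gy (mean 4.86 ± 0.65, SD). Among the 6 irradiated ATM-KO mice, 5 lay below every control. In Scid mice the Sod2 levels were 7.23, 6.97, 5.94, 5.84 and 4.98 at 0 Gy (mean 6.19 ± 0.91, SD), and 4.84, 4.66, 4.00, 4.43 and 4.33 at 3 Gy (mean 4.45 ± 0.32, SD). These groups did not overlap, as was the case for 2.23% of all genes in the lower direction.
The change of Sod2 in WT was -1.70 (SE 0.49, 95% interval -2.70 to -0.70, adjusted p = 0.0282), a scaled level 3.25-fold lower after 8 Gy. The unscaled log2 signal of Sod2 differed by -0.16 between these groups, and the log2 percentile used for scaling by 1.54. The scaled WT change was thus mostly that of the percentile. In ATM-KO the change of Sod2 was -1.14 (SE 0.49, 95% interval -2.14 to -0.14, adjusted p = 0.326). In Scid it was -1.74 (SE 0.51, 95% interval -2.78 to -0.69, adjusted p = 0.0968), and neither was called. Unscaled differences of Sod2 were -1.35 in ATM-KO and -1.35 in Scid, where the percentile differed by -0.22 and 0.38. The mean scaled change over the 3 genotypes was -1.53 (SE 0.29, adjusted p = 0.000323). No member was called between responses, beside 0% of all genes (1296 and 1080 genes had an unadjusted p under 0.05 in limma): the ATM-KO response less the WT response was 0.56 (95% interval -0.85 to 1.98, adjusted p = 0.833), and the Scid response less the WT response -0.04 (95% interval -1.49 to 1.41, adjusted p = 0.988). That Scid difference was -0.13 (adjusted p = 0.989) without the library labelled Scid 0 Gy replicate 4 and -0.29 (adjusted p = 0.999) without both libraries that go against their labels. Among all genes, 3.93% had a lower change than Sod2 in WT, 4.26% in ATM-KO and 1.01% in Scid.

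**Figure D2:**
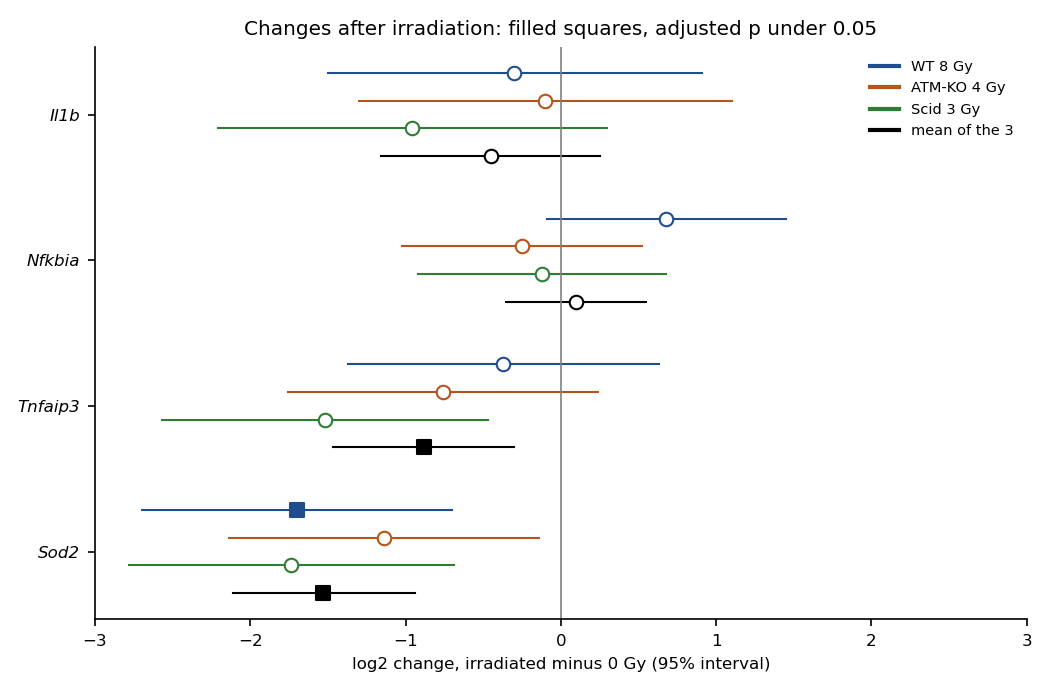
Log2 change after irradiation (horizontal axis, irradiated minus 0 Gy) of the 4 measured genes in each genotype and in the mean of the 3, as points with 95% intervals from limma; filled squares passed an adjusted p of 0.05. Sod2 in WT (-1.70), Sod2 in the mean (-1.53) and Tnfaip3 in the mean (-0.88) are filled.

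The WT call of Sod2 was lost under 9 of 15 other settings, where the change ran from -2.10 to -0.42 over all 15, and it rested on single arrays. Without WT 0 Gy replicate 4 the change was -2.25 (SE 0.39, adjusted p = 0.000263), and the call was lost without WT 0 Gy replicates 1 (-1.54), 3 (-1.54) or 6 (-1.51), or WT 8 Gy replicates 3 (-1.49), 4 (-1.68) or 5 (-1.61), with adjusted p-values of 0.058 to 0.0825. The Scid change passed the threshold without WT 0 Gy replicate 4 (adjusted p = 0.0209) or Scid 0 Gy replicate 5 (-2.04, adjusted p = 0.0262), and was -1.83 (SE 0.55, adjusted p = 0.119) without the library labelled Scid 0 Gy replicate 4. The mean over genotypes was called without each of the 32 arrays in turn, between -1.71 and -1.44. Without both libraries that go against their labels it was -1.50 (adjusted p = 0.00086). It was lost with normexp background correction (-1.14, adjusted p = 0.426) and with slide as a block (-1.01, adjusted p = 0.0772).
Scaling moved all genes together. The median change of all genes in WT was 0.32 with array medians, 0.41 with the 75th percentile of probes detected on all arrays and 1.25 with spike-in probes, and in ATM-KO it was -1.66 with spike-in probes. The WT change of Sod2 was -1.36, -1.27 and -0.42 under these 3 scalings, none called. Its distance from the median of all genes was -1.68, -1.67 and -1.67, beside -1.68 in the scaling used here. In ATM-KO that distance was -0.98 with each of them. Each of these scalings subtracts 1 constant per array, so the distance is the same by construction and is no check of the fall. With normexp background correction the WT change of Sod2 was -0.43 and lay -0.47 from the median. That setting also added an offset of 50 to the signals before scaling to the 75th percentile. The parts of the background, the offset and the scaling in the smaller change were not tested.

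**Figure D3:**
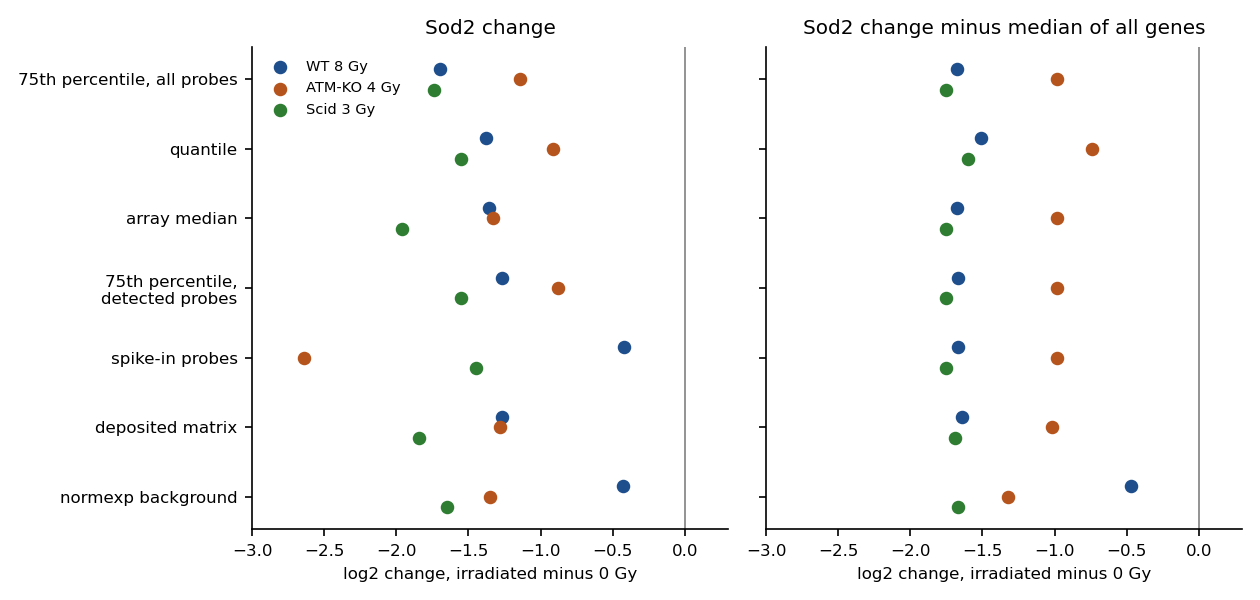
Log2 change of Sod2 after irradiation in WT, ATM-KO and Scid (horizontal axis) under 7 ways of scaling or background correction (rows), on the left as fitted and on the right less the median change of all genes. On the left the WT value ranges from -1.70 to -0.42; on the right it lies between -1.68 and -1.51 in every row but normexp, where it is -0.47.

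Arrays were scanned on 4 days, and days held unequal shares of the groups. Within the first day the WT difference of Sod2 was -1.61 (1 irradiated, 3 control arrays) and within the second -0.46 (3 irradiated, 2 control arrays, replicate 4 among the controls). Within the first day the Scid difference of Sod2 was -1.75 (2 and 4 arrays), and within the second -0.76 (2 and 1). In ATM-KO it was -0.41 (1 and 4) within the first and -0.40 (1 and 1) within the third day. With scan day as a block the change of Sod2 was -1.14 (adjusted p = 0.151) in WT, -0.34 (adjusted p = 0.926) in ATM-KO and -1.46 (adjusted p = 0.164) in Scid, and the mean over genotypes, -0.98, was still called (adjusted p = 0.0323).
Within days the difference of Tnfaip3 was below 0 in all 6 day-by-genotype comparisons, from -3.45 to -0.24. Some of these rest on single arrays. The -3.45 (Scid, second day) compared 2 irradiated arrays with 1 control, Scid 0 Gy replicate 5, the highest of its group at 1.86. In ATM-KO the third day gave -1.43 from 1 array each, the irradiated one not well above background. The differences of Il1b (-2.69 to 0.17) and Nfkbia (-0.97 to 1.33) had both signs.

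Markers of blood cell types moved with some of these values. Beside the counts below, 7.2% of all genes were called in WT, 0.237% in ATM-KO, 1.08% in Scid and 11.5% in the mean over genotypes. The mean level of 9 erythroid markers ran from 3.76 to 5.97 in the WT controls and from 0.85 to 2.38 after 8 Gy, from 4.78 to 5.18 and from 2.90 to 4.78 in ATM-KO, and from 4.54 to 6.03 and from 2.97 to 4.29 in Scid. Of the 9, 7 fell in WT (among them Ank1 with a change of -6.48 and Slc4a1 with -4.88), 1 in ATM-KO (Epb42) and 3 in Scid (Epb42 among them). Erythroid markers and Sod2 were thus both lower after irradiation, and the part of the erythroid change in that of Sod2 was not tested. In bulk blood, fewer cells of a type and less RNA per cell cannot be told apart.
Of 15 monocyte markers 3 rose in WT (Ms4a6d by 2.38, Cd14 by 2.07 and Fcgr4 by 1.20 on the log2 scale) and 0 in ATM-KO and Scid, and the mean monocyte marker level ran from 1.08 to 2.15 in the WT controls and from 1.82 to 2.95 after 8 Gy. Of the 15, 11 had a higher mean in WT and 4 a lower one. Of 13 neutrophil markers Camp fell in WT (-1.40, adjusted p = 0.0411) and 0 were called in ATM-KO or Scid. That 1 call among 13 is near the WT share of all genes. Lower means were found for 10 of the 13 in WT, 6 in ATM-KO and 12 in Scid. Mean neutrophil levels were 2.19 to 3.76 in WT at 0 Gy, 2.25 to 3.92 at 8 Gy, 2.32 to 3.82 in Scid at 0 Gy and 1.40 to 3.90 at 3 Gy. The array with the lowest neutrophil level, Scid 3 Gy replicate 4 at 1.40, was also the one with the lowest Il1b.
Some lymphocyte markers fell as well. All 11 tested B cell markers had lower means in WT, with 3 called (Vpreb3 at -4.35, Ebf1 at -2.42 and Cr2 at -2.35), and all 11 in ATM-KO, with Vpreb3 called (-2.57), at median changes of -0.94 and -1.72. In Scid 9 of the 11 had lower means, with 0 called and a median change of -0.50. The mean B cell marker level was 1.37 on the library labelled Scid 0 Gy replicate 4, which goes against its label. It was -2.10 to -0.79 on the other Scid controls, and the 3 Gy arrays, at -1.66 to -1.19, lay within that range. In the mean over genotypes, which includes that library, 4 B cell markers fell. Of 11 T cell markers 9 had lower means in WT, with Cd8a called (-2.59), 9 in ATM-KO and 7 in Scid, with 0 called in those, and 2 (Cd5 and Cd8a) fell in the mean over genotypes. The 1 T cell call in WT stands beside 7.2% of all genes, and the 2 in the mean beside 11.5%. The part of lymphocyte markers in the changes of Sod2 and Tnfaip3 was not tested.

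Tnf encodes tumour necrosis factor, the classical inducer of NF-kB, and Il1a the alpha form of interleukin 1. On no array was the Tnf probe (chr17:35336795-35336854, mm9) well above background, and 16 of its 320 single spots were, with a processed signal of 2.2 to 24.1. The Il1a probe (chr2:129125994-129126053, mm9) gave 1.7 to 11.1 and was above background on none.
Il6, the cytokine that drives the acute-phase response, was well above background on 1 array, WT 8 Gy replicate 1, at a signal of 21.5, against 3.31 to 5.05 on the other WT 8 Gy arrays. Cxcl2, a chemokine that draws neutrophils through the receptor Cxcr2, was well above background on 2 arrays, WT 8 Gy replicate 1 at 14.3 and replicate 4 at 30.9. Its highest signal on the 6 WT 0 Gy arrays was 5.72. Both arrays belong to the group with the highest 75th percentiles, and the lowest signal that counted as well above background on replicate 1 was 7.94. Replicate 1 was also among the arrays with bright liver markers (8.88), whose part in these signals was not tested.
Il1rn, the receptor antagonist that blocks interleukin 1, was well above background on 7 arrays: 1 of 6 WT 0 Gy, 3 of 5 WT 8 Gy, 1 of 5 ATM-KO 0 Gy, 1 of 6 ATM-KO 4 Gy, 0 of 5 Scid 0 Gy and 1 of 5 Scid 3 Gy. The brightest was ATM-KO 4 Gy replicate 4 at a signal of 51.5. Ptgs2, the inducible cyclooxygenase that makes prostaglandins, stayed between 2.05 and 6.07 and was above background on 0 of 32 arrays and 3 of 320 spots.

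**Figure D4:**
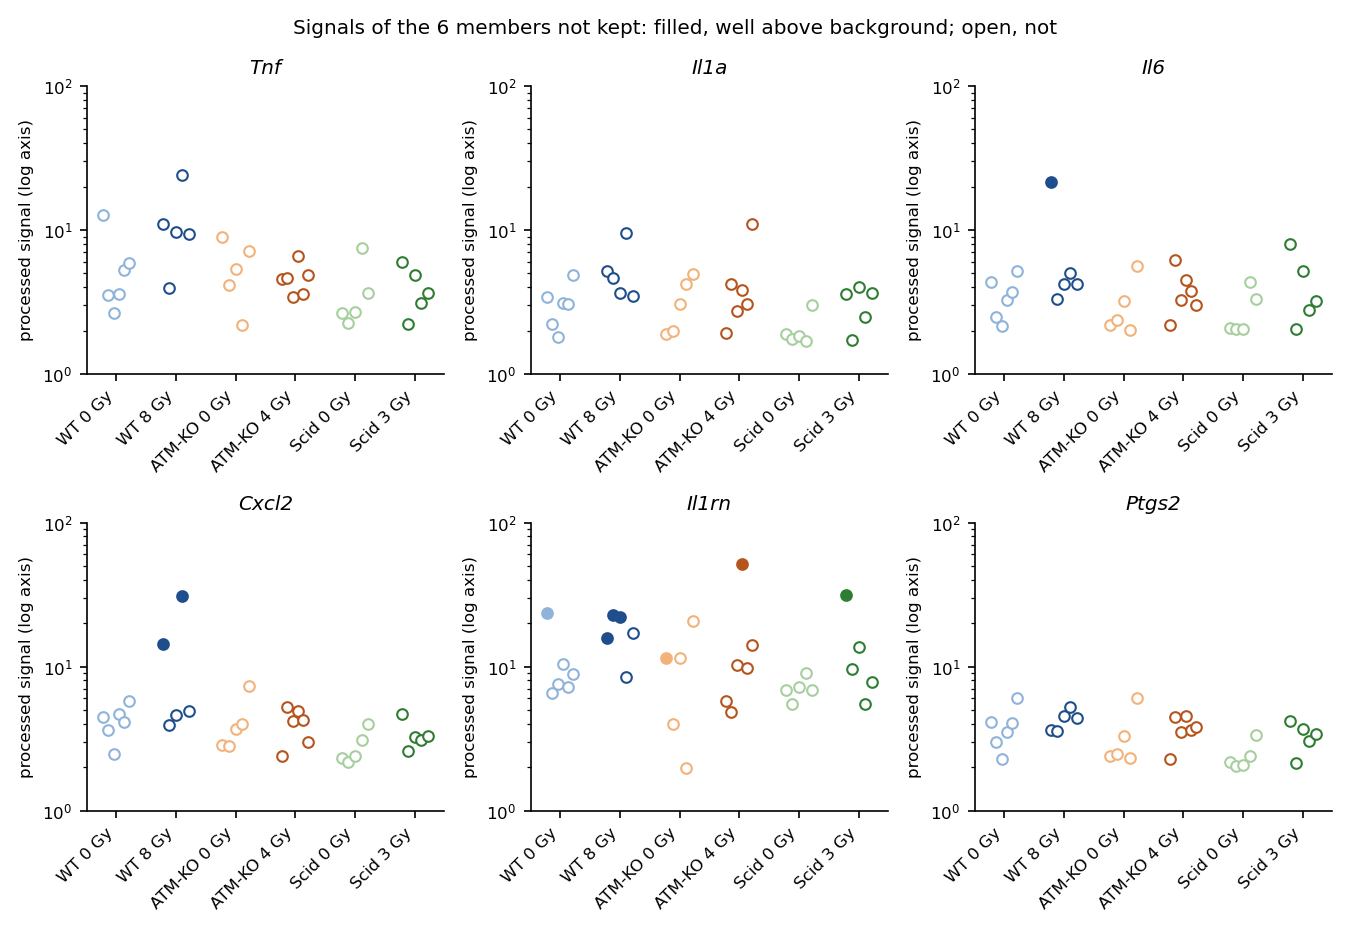
Processed signal (vertical log axis) of Tnf, Il1a, Il6, Cxcl2, Il1rn and Ptgs2 on each of the 32 arrays by group; filled points were well above background, open points were not. Of 192 points 10 are filled, 6 of them in WT 8 Gy, where the highest signal is 30.9. Of all probes, 45.7% to 58.6% were well above background per WT 8 Gy array and 28% to 53.3% per WT 0 Gy array.

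Of the 192 values of these 6 genes (6 genes on 32 arrays), 10 were well above background: 6 of 30 in WT 8 Gy, 1 of 36 in WT 0 Gy, 1 of 30 in ATM-KO 0 Gy, 1 of 36 in ATM-KO 4 Gy, 0 of 30 in Scid 0 Gy and 1 of 30 in Scid 3 Gy. Where a gene was dark on all arrays of 1 group but detected on some of the other, the brighter group's mean did not exceed the dim group's bound, so no fold is given. When all probes were tested with no filter (30139 genes), 0 of the 6 were called in any irradiation comparison, beside 5.1% of all genes in WT, 0.0232% in ATM-KO and 0.179% in Scid.
The lowest adjusted p among them was that of Ptgs2 in WT, with a change of -1.34 (SE 0.47, adjusted p = 0.0594). The unscaled log2 signal of Ptgs2 differed by 0.21 between these groups and the 75th percentile of the arrays by 1.54, so the scaled change carries the percentile of arrays on which the probe was dark. The other 5 had WT changes of -0.79 (Il1a) to -0.50 (Cxcl2) with unscaled differences of 0.75 to 1.04, in each case below 1.54. For Tnf, Il1a and Ptgs2, which were above background on no array, these values give no direction for the transcript.

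At 0 Gy no measured member was called between genotypes, beside 0% of all genes. The ATM-KO level less the WT level was 0.64 (95% interval -0.13 to 1.40) for Nfkbia, 0.34 (-0.66 to 1.35) for Tnfaip3, 0.31 (-0.89 to 1.51) for Il1b and 0.25 (-0.75 to 1.25) for Sod2, each at an adjusted p of 1. Without both libraries that go against their labels they were 0.53, 0.19, 0.30 and 0.41 in the same order. The Scid level less the WT level was 0.44 (-0.56 to 1.44) for Sod2, 0.31 (-0.69 to 1.31) for Tnfaip3, -0.01 (-1.21 to 1.19) for Il1b and -0.29 (-1.06 to 0.47) for Nfkbia, with adjusted p-values of 0.899 to 0.997. Without the library labelled Scid 0 Gy replicate 4 these differences were 0.53 for Sod2, 0.15 for Tnfaip3, 0.41 for Il1b and -0.59 for Nfkbia. Without the library labelled WT 0 Gy replicate 3 as well they were 0.69, -0.01, 0.40 and -0.70 in the same order, with adjusted p-values of 0.409 to 0.992, and 35 of all genes were called. In limma 0 of 15159 genes were called in either 0 Gy comparison, and 342 (ATM-KO) and 499 (Scid) had an unadjusted p under 0.05.

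The wider pathway was read from 7 lists of 117 genes, of which 91 were tested, chosen with earlier results of these data known. In WT 2 rose and 5 fell, 7.69% of those tested beside 7.2% of all genes, in Scid 2 fell (2.2% beside 1.08%), and in ATM-KO 0 were called. In the mean over genotypes 2 rose and 10 fell (13.2% beside 11.5%). None of the 4 tested NF-kB subunits, 9 IkB proteins and deubiquitinases, 29 kinases and adaptors or 10 cytokine receptors was called in a single genotype. In the mean over genotypes Irak1, a kinase of interleukin 1 signalling, was lower (-0.80, adjusted p = 0.00103), as were Nfkbid, an atypical IkB protein (-0.57, adjusted p = 0.0143), and Sigirr, an inhibitory receptor of the interleukin 1 family (-0.77, adjusted p = 0.0472), and Pidd1, which links DNA damage to NF-kB, was higher (0.82, adjusted p = 0.0211). Rela, the main activating subunit, changed by 0.24 (SE 0.39) in WT, -0.35 (SE 0.39) in ATM-KO and 0.02 (SE 0.41) in Scid. Tnip1, a partner of A20, changed by -0.57 (SE 0.40), -0.61 (SE 0.40) and -0.56 (SE 0.42), and Tnfrsf1a, the main receptor of tumour necrosis factor, by 0.60 (SE 0.37), 0.41 (SE 0.37) and -0.32 (SE 0.39), all with adjusted p-values of at least 0.371.
Among 13 cytokine-processing and prostaglandin genes, Il18, an inflammasome substrate, rose by 1.77 (SE 0.50, adjusted p = 0.0246) and Pycard, the inflammasome adaptor ASC, by 1.64 (SE 0.45, adjusted p = 0.02) in WT, and the list's median change was 0.73 beside -0.02 for all genes. Among 18 other NF-kB targets, Bcl2l1, a survival gene also abundant in maturing red cells, fell by 2.58 (SE 0.47, adjusted p = 0.000336) and Nos2, the inducible nitric oxide synthase, by 1.08 (SE 0.33, adjusted p = 0.0428) in WT. These were 2 calls of 13 and 2 of 18, beside 7.2% of all genes called in WT.
The superoxide and peroxide enzymes, the list nearest to Sod2 in function, had 3 of 8 genes lower in WT: Gpx1, the main cytosolic glutathione peroxidase, with a change of -2.89 (SE 0.39, adjusted p = 5.48e-06), Txnrd2, the mitochondrial thioredoxin reductase, with -2.08 (SE 0.36, adjusted p = 0.000142), and Cat, catalase, with -1.66 (SE 0.45, adjusted p = 0.0168). In Scid Gpx1 fell by 2.20 (SE 0.41, adjusted p = 0.00423) and Txnrd2 by 1.87 (SE 0.37, adjusted p = 0.00777). Over all genes 7.2% were called in WT and 1.08% in Scid. The list's median change was -0.19 in WT and -0.08 in Scid, since 4 of its 8 genes had a higher mean after irradiation in both.

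The genes whose levels followed each measured member most closely over the 32 arrays were taken as the 3 with the highest Pearson r among 12209 genes with a symbol. All points share array, scaling and group structure, and r is given as a description. Il1b was most like Sirpb1b, Sirpb1a and S100a9 (r = 0.91 each, and 0.87 without the 2 arrays farthest from each one's median). Sirpb1a and Sirpb1b are near-identical copies whose probes may share signal, and S100a9 is an abundant neutrophil protein. Within groups, r of Il1b with S100a9 was 0.92.
Nfkbia was most like Zfp622 (r = 0.91), Vps18 (0.90), a subunit of a lysosomal tethering complex, and Impdh2 (0.90), an enzyme of guanine nucleotide synthesis. Nfkbia levels also had an r of 0.51 with the array's log2 75th percentile, against -0.14 for Il1b, -0.05 for Tnfaip3 and -0.29 for Sod2. Tnfaip3 was most like Clasrp (r = 0.77), Rack1 (0.77), a ribosomal scaffold, and Rpl32l (0.73).
Sod2 was most like Metap2 (r = 0.87), a methionine aminopeptidase, and also like St3gal5 (0.79), which makes the ganglioside GM3. Within groups these r were 0.79 and 0.50. WT 0 Gy replicate 4, the low Sod2 control, was also low for Metap2 (-1.33), and without it and WT 8 Gy replicate 2 the r with Metap2 was 0.89. Metap2 changed by -1.39 (SE 0.58, adjusted p = 0.156) in WT, -1.35 (SE 0.58, adjusted p = 0.326) in ATM-KO and -1.80 (SE 0.61, adjusted p = 0.176) in Scid, and by -1.51 (SE 0.34, adjusted p = 0.0024) in the mean. St3gal5 changed by -2.99 (adjusted p = 2.09e-06) in WT, -1.64 (adjusted p = 0.0512) in ATM-KO and -2.10 (adjusted p = 0.00423) in Scid by limma.

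**Figure D5:**
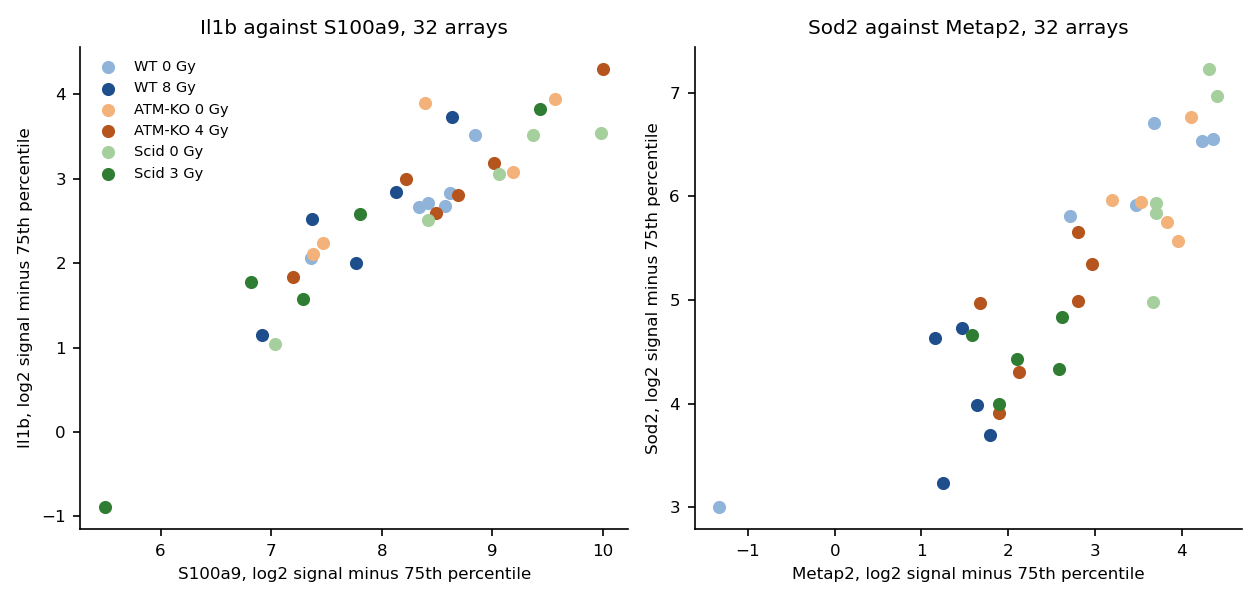
Levels on the 32 arrays (log2 processed signal minus 75th percentile on both axes), coloured by group: Il1b against S100a9 (r = 0.91) on the left and Sod2 against Metap2 (r = 0.87) on the right. On the left the groups mix along the trend, with Scid 3 Gy replicate 4 lowest; on the right the irradiated arrays sit lower than most controls, with WT 0 Gy replicate 4 lowest at 3.00.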

How the data were processed

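Each sample was 1 mouse's whole blood on 1 Agilent array. Per the file headers the deposited intensity values were made with Feature Extraction 11.5.1.1 (the submitters' processing notes give 12.0.2), with probes placed on mm9, background subtracted within each array and no scaling between arrays. The deposited series values were on a log2 scale: 98.12% to 99.12% of them per array differed from the log2 processed signal by 1 constant per array, to within 0.01, and what the authors took as that constant is not given in the sources used here.

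Outlier spots (125 to 324 per array) were left out and spots of a probe averaged. Levels were log2 processed signal minus the array's 75th percentile. A probe was kept if 4 or more arrays of 1 group had it well above background (18367 of 39429), and a gene was its kept probe of highest mean. The fit was limma 3.58.1 in R 4.3.3 over 32 arrays and 6 group means, two-sided, with Benjamini-Hochberg adjustment over 15159 genes and a threshold of 0.05. The number of arrays limits the precision. The 10 members and all gene lists were chosen with earlier results of these data known. Named list genes were the up to 3 called genes of largest change, or else genes among the 2 of highest signal. Replicate numbers did not pair the arrays: 76 same-numbered pairs from different groups had a mean correlation of deviations of 0.02. No 2 arrays correlated above 0.983. The fit was tested on simulated data. Other scalings, filters, blocks and single-array omissions were tried. Some list genes and like genes that these rules name are not reported here.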

Additional observations from a re-analysis of the deposited data

Results flagged for a closer look

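In 6 of 60 checks of a member in a group, 1 array stood far from the others of its group, where chance gives about 1 in 20. Sod2 in WT 0 Gy replicate 4 was 3.00, and the nearest of the other controls was 5.81. Nfkbia in Scid 3 Gy replicate 1 was 1.51, with the nearest array at 2.91. Tnfaip3 in ATM-KO 0 Gy replicate 1 was 0.98, with the nearest at 0.13. The other three were levels of probes not well above background: Tnf in ATM-KO 0 Gy replicate 1 at -2.50, Il1a in WT 8 Gy replicate 4 at -3.85 and Il1a in ATM-KO 0 Gy replicate 4 at -2.73.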

How the results depend on the processing

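Low signal kept 6 of the 10 genes from passing the filter. The calls of Sod2 and Tnfaip3 changed with the scaling, the background correction, scan day or slide, and with single arrays left out. Il1b and Nfkbia were called with spike-in scaling alone. Where no construction of the alternative shows it, the cause was not tested. Of the 4 measured members, 1 was called in WT, and 0 with normexp, quantile, array median, detected-probe percentile, series values, slide block or scan-day block, or without both libraries that go against their labels (chosen after seeing the data). In ATM-KO 0 were called, and 4 with spike-in scaling, which called 10782 of all 15159 genes there. In Scid 0 were called, and 1 (Sod2) with probes detected on all arrays or with the replicate block. In the mean 2 were called, and 0 with normexp or the slide block. Only 1 was called with array median, detected-probe percentile, spike-in, no filter, series values, scan-day block or replicate block. The same held without the 4 liver-bright arrays or without both libraries that go against their labels. With probes detected on all arrays Tnfaip3 was not tested, and Sod2 was called. In the ATM-KO response less the WT response 4 were called with spike-in scaling and 0 otherwise. Spike-in scaling called 13654 of all 15159 genes in that difference, so the 4 calls are not particular to the members.

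Over all genes, WT calls were 1092, and 470 with normexp, 672 with array median, 4213 with spike-in and 539 with the slide block. ATM-KO calls were 36, and 1 with normexp, 184 with array median, 10782 with spike-in, 108 with the detected-probe percentile, 7 with no filter, 110 with probes detected on all arrays, 339 with series values, 0 with the slide or scan-day block, 75 with the replicate block and 11 without the liver-bright arrays. Scid calls were 163, and 0 with normexp or spike-in, 54 with no filter, 247 with probes detected on all arrays, 368 with series values, 85 with the slide block, 69 with the scan-day block and 267 without the liver-bright arrays. Calls in the mean were 1736, and 169 with normexp, 642 with spike-in, 638 with the slide block and 858 with the scan-day block. The ATM-KO response less the WT response had 0, and 13654 with spike-in and 36 with the slide block. Without both libraries that go against their labels, 35 genes were called between Scid and WT at 0 Gy and 2 in the Scid response less the WT response, in place of 0.

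Spike-in scaling turned the ATM-KO response less the WT response to -2.58 for Il1b and -2.22 for Sod2. With no filter as well, a setting chosen after seeing the data, it turned ATM-KO changes to -1.44 (Tnf), -1.29 (Cxcl2) and -1.05 (Ptgs2), and that difference to -2.20 (Tnf) and -2.06 (Cxcl2). Leaving out 1 array gave 0 to 1 members in WT, 0 to 0 in ATM-KO, 0 to 1 in Scid and 1 to 2 in the mean. It gave 688 (without WT 8 Gy replicate 1) to 1835 (without WT 0 Gy replicate 5) genes in WT, 2 (without ATM-KO 0 Gy replicate 2) to 274 (without ATM-KO 4 Gy replicate 1) in ATM-KO, 43 (without Scid 0 Gy replicate 2) to 403 (without Scid 0 Gy replicate 5) in Scid, 1463 to 2053 in the mean, 0 to 3 in the Scid 0 Gy difference and the ATM-KO response difference, and 0 to 1 in the Scid response difference. With the replicate block, whose numbers do not pair the mice, Sod2 changed by -1.55 (adjusted p = 0.0224) in WT and -1.74 (adjusted p = 0.0382) in Scid by limma.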
